A study of Rattus norvegicus with 9 samples.

Results

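Podocyte marker genes did not differ detectably between the kidneys of 4 rats labelled case and 5 labelled control. They were chosen by gene symbol: every probe set of the array whose only gene symbol was Nphs1, Podxl, Synpo, Wt1, Ptpro, Cd2ap or Actn4 was taken, and each was kept apart. This gave 11 of the 15866 probe sets other than controls, for 6 of the 7 genes. Nphs1, Synpo and Wt1 had 2 probe sets each, Podxl had 3, Ptpro and Actn4 had 1 each, and no probe set carried the single symbol Cd2ap, so this gene was not measured here. Of the 11 probe sets, 8 passed a filter on low values and were tested, and 3 dim ones did not. The single difference with an unadjusted p under 0.05 was at a Podxl probe set, which was lower in case, and it did not pass adjustment.

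Kidney RNA from each of the 9 animals was hybridised to 1 Affymetrix RAE230A array, which measures a transcript with a probe set, a group of short probes. The series concerns gene expression in hypotension. Both groups are described only as rat kidney, and the sources used here do not give strain, age or what was done to the case animals. Nothing in the labels pairs a case with a control animal, and animals are named below by their numbers in the labels (3, 5, 7 and 8 in case, 4, 9, 10, 11 and 12 in control).

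Podocytes are the epithelial cells that wrap the glomerular capillaries. Their interlocking foot processes are bridged by the slit diaphragm, which, with the basement membrane beneath, forms the filtration barrier of the kidney. Loss or flattening of foot processes leads to protein in the urine, and mutations in several of these genes cause inherited nephrotic disease. Podocytes are a small share of kidney cells, so their transcripts are diluted in kidney RNA. A lower signal from fewer podocytes and one from less RNA per podocyte cannot be told apart.

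The median signal lay between 45.2 and 55.6, lowest in case animals 7 (45.2) and 8 (46.8), and log2 values correlated between arrays at 0.93 to 0.97. Case animals 7 and 8 stood apart in the ratio of actin signal at the 3' end of the transcript to that at the 5' end, a common check of RNA and labelling quality. Their ratios were 3.05 and 3.11, where the other 7 arrays lay between 1.12 and 2. The same ratio for GAPDH was highest in case animal 7 (2.39), followed by case animals 3 (2.09) and 8 (1.93), and lay between 1.55 and 1.79 in the others. By the hybridisation times in the file headers the arrays were placed in 3 groups, called fluidics runs here, an inferred grouping. They held 3 case and 1 control animals, 1 case and 3 controls, and 1 control. As a check of the tissue, 12 of 12 proximal, loop, distal and collecting duct marker genes passed the filter, and of 5 adrenal cortex and liver markers with a probe set, 0 did.

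Differences were tested with limma on log2 values, as case minus control, and adjusted over all 9519 probe sets tested. None of the 8 podocyte marker probe sets tested had an adjusted p under 0.05, and over the whole array 0 of 9519 did (0%). Their adjusted p lay between 0.691 and 0.990. At an unadjusted p under 0.05 there was 1 of the 8, or 12.5%, beside 6.69% of all probe sets tested. That 1 was lower in case and 0 were higher, beside 3.81% lower and 2.88% higher over all tested. Of the 8 differences, 4 were above 0 and 4 below. Their median was -0.01 on the log2 scale, beside -0.02 over all tested, and the median size regardless of direction was 0.09, beside 0.13. In all 11 probe sets, 3 of them below the filter, the values of case and control animals overlapped. Over all probe sets tested the groups did not overlap for only 1.88%, so overlap in all of so few members is near the background.

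**Figure D1:**
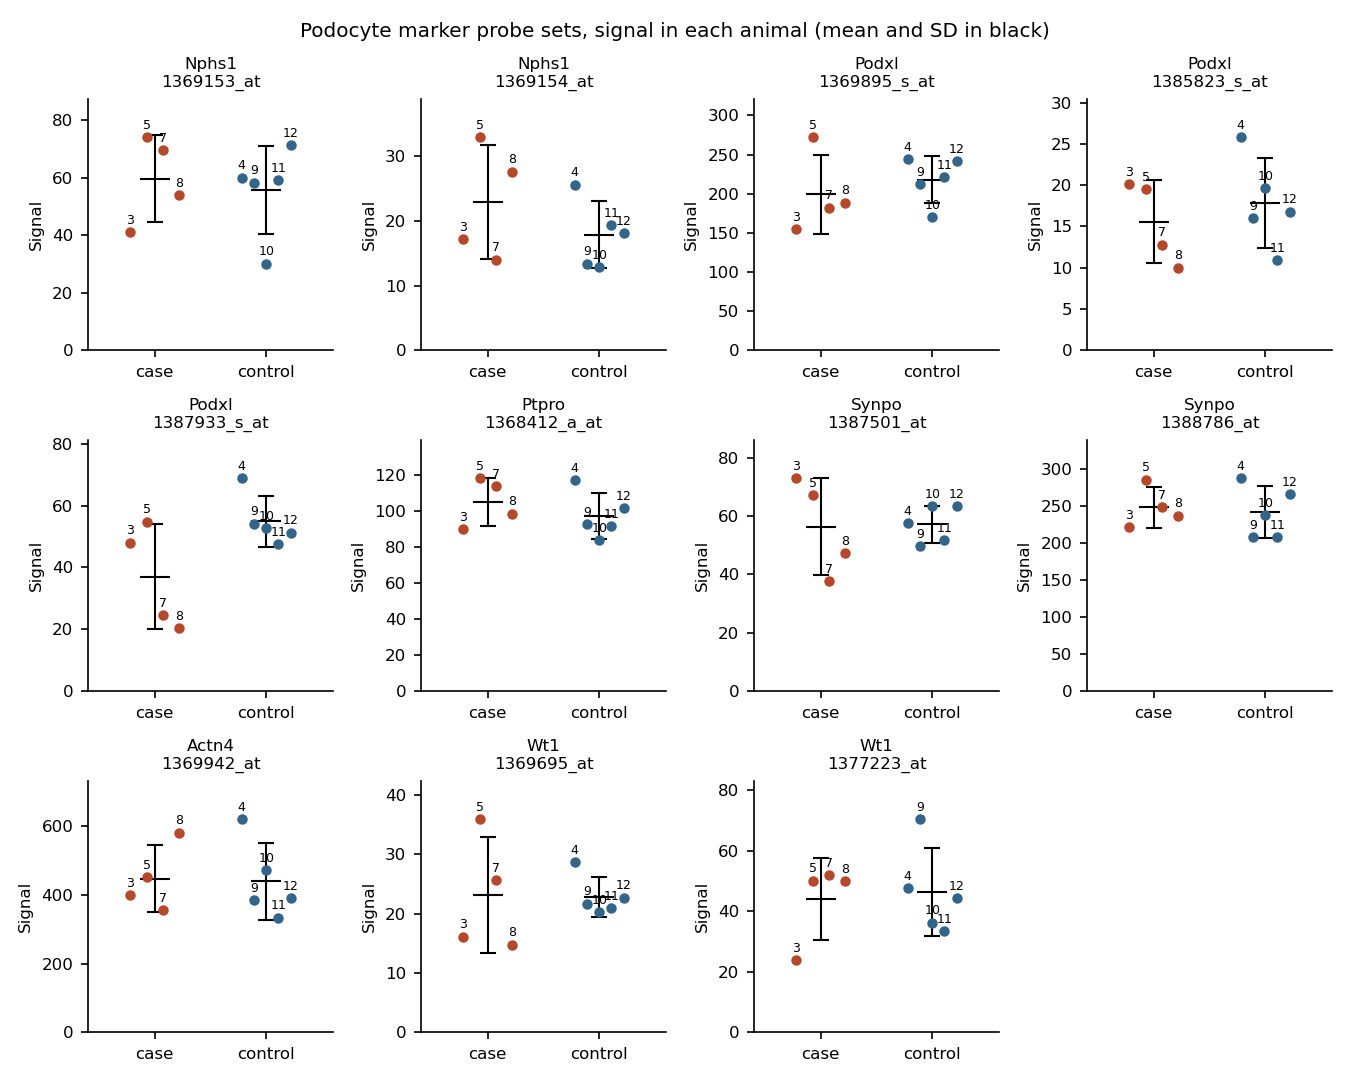
Signal (linear, vertical axis from 0) of each of the 11 podocyte marker probe sets in each of 4 case and 5 control animals, with the animal's number beside its point and the group mean and SD in black. Case and control points overlap in every panel, and case animals 7 and 8 lie lowest for Podxl 1387933_s_at, at 24.6 and 20.5.

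Nphs1 encodes nephrin, the adhesion protein of the immunoglobulin superfamily that spans the slit diaphragm. At its brighter probe set, 1369153_at, the signal was 41.2, 74.1, 69.7 and 53.9 in case animals 3, 5, 7 and 8. In control animals 4, 9, 10, 11 and 12 it was 60.1, 58.3, 30.2, 59.3 and 71.3. Control animal 10 was the lowest of all 9 and case animal 3 the next lowest, and the groups overlapped over most of their range. The case mean was 59.7 ± 15.1 (SD, n = 4) and the control mean 55.8 ± 15.3 (SD, n = 5). On the log2 scale the difference was 0.10 ± 0.23 (SE), with a 95% interval from a fold of 0.756 to one of 1.53 (limma adjusted p = 0.972). The other Nphs1 probe set, 1369154_at, lay below the filter, with signals of 17.2, 32.9, 14 and 27.6 in case. Its control signals were 25.6, 13.4, 12.9, 19.3 and 18.1, and its log2 difference in a fit with no filter was 0.26 ± 0.27 (SE; limma adjusted p = 0.933).

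Podxl encodes podocalyxin, the strongly charged sialomucin that coats the urinary face of podocytes and is also made by vascular endothelium. Its 3 probe sets, all of a type whose probes can match several transcripts, gave different pictures. The brightest, 1369895_s_at, had signals of 154.7, 272, 182.3 and 188.5 in case animals 3, 5, 7 and 8. In control animals 4, 9, 10, 11 and 12 the signals were 244.2, 212.3, 170.2, 221.1 and 241.2. Both the lowest and the highest of the 9 values were from case animals, 3 and 5. The log2 difference was -0.14 ± 0.17 (SE), with a 95% interval from a fold of 0.706 to one of 1.16 (limma adjusted p = 0.923). Without case animal 3 it was -0.04, and without case animal 5 -0.30.

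At the Podxl probe set 1387933_s_at the case signals were 48.0, 54.8, 24.6 and 20.5, and the control signals were 68.8, 54.1, 52.8, 47.5 and 51.2. Case animals 7 and 8 were the lowest of all, while case animals 3 and 5 lay within the range of the controls. The means were 37.0 ± 17.0 (SD, n = 4) and 54.9 ± 8.17 (SD, n = 5). The log2 difference was -0.60 ± 0.25 (SE), a fold of 0.662 with a 95% interval from 0.455 to 0.962, and limma gave an unadjusted p of 0.0331 and an adjusted p of 0.691. The exact permutation test, 2-sided over the 126 ways to assign 4 of 9 animals, gave p = 0.0794, where the smallest it can give is 0.00794. The dimmest Podxl probe set, 1385823_s_at, lay below the filter, with signals from 10.0 to 20.1 in case and from 10.9 to 25.8 in control (log2 difference -0.15 ± 0.26 (SE), fit with no filter).

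The 2 animals that set the Podxl 1387933_s_at difference were those with the highest actin ratios and the lowest median signals. Without case animals 7 and 8 its log2 difference was -0.08, without animal 7 alone -0.46, and without animal 8 alone -0.39. It was -0.31 with the log2 actin ratio as a covariate (limma adjusted p = 0.997). In none of these 4 fits was the unadjusted p under 0.05. Among the other 7 arrays the signal had r = -0.01 with the log2 actin ratio (exact permutation p = 0.988). Over all 9 arrays r was -0.82 (exact permutation p = 0.0117, adjusted 0.0646 over 11 such relations) and rho -0.60 (exact permutation p = 0.0968), so the relation rests on these 2 arrays. Within the first fluidics run, where control animal 4 was the only control, the difference was -0.70. Within the second, where case animal 8 was the only case, the difference was -1.14, so each rests on a group of 1 animal. With the run as a block the difference was -0.92 (limma adjusted p = 0.600). Without case animal 3 it was -0.74, and without case animal 5 -0.80. In each of these larger differences the unadjusted limma p was under 0.05, and none passed adjustment. Without control animal 4 or without control animal 9 the unadjusted limma p was above 0.05. The part of RNA quality in this difference was not tested further.

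**Figure D2:**
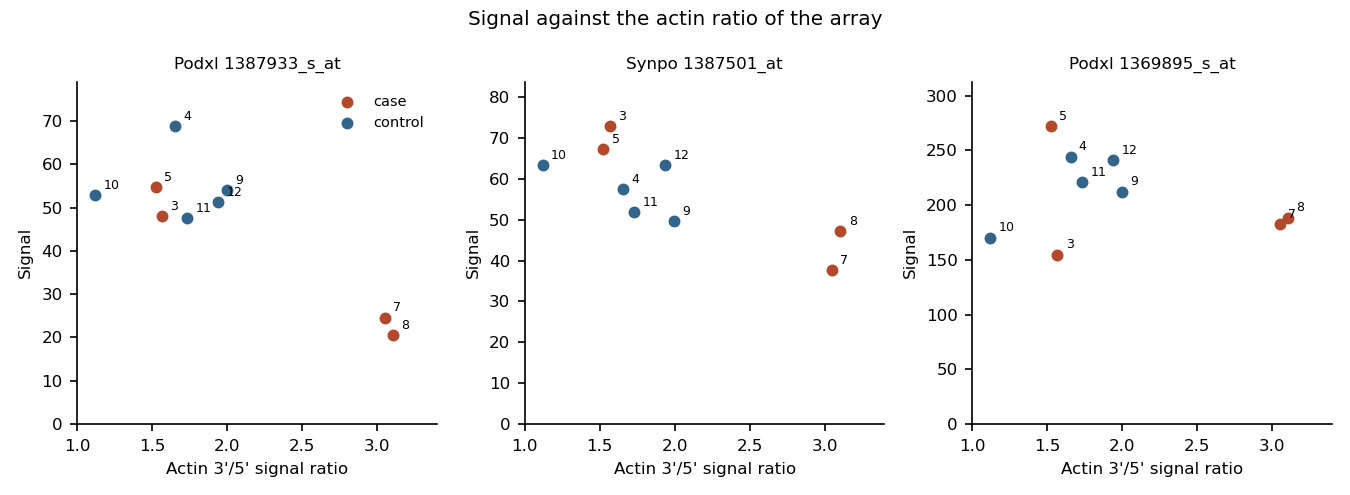
Signal (linear, vertical axis from 0) of 2 Podxl probe sets and 1 Synpo probe set against the actin 3'/5' signal ratio of the array, with 1 numbered point per animal. Case animals 7 and 8, at ratios of 3.05 and 3.11, are the lowest for Podxl 1387933_s_at and Synpo 1387501_at but not for Podxl 1369895_s_at, where case animal 3 is lowest at 154.7.

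Podxl and Nphs1 differ in the sequence before their start sites, shown here because their brightest probe sets are the pair whose patterns over animals are described below. The windows run from 250 bases before to 50 after the RefSeq start in assembly GRCr8, at chr1:94848011-94848310 (plus strand) for Nphs1 and chr4:61149082-61149381 (minus strand) for Podxl. Capitals mark the GC box GGGCGG, the classical Sp1 binding motif, on either strand (CCGCCC when read on the strand shown), with overlapping matches counted.
Nphs1: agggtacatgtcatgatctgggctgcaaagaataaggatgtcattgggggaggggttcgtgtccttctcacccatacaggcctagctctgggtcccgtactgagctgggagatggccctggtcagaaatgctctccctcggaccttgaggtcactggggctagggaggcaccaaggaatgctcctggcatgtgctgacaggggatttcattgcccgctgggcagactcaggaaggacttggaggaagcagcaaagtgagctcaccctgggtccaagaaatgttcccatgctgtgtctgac
Podxl: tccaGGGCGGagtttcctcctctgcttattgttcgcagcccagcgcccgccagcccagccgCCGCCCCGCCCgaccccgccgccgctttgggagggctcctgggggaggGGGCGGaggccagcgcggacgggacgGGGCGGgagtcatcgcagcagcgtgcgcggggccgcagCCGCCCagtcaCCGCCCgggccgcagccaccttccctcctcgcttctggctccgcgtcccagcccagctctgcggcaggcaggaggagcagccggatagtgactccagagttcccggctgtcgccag
The Podxl window held 7 matches and a GC content of 74.7%, and the Nphs1 window held 0 matches and a GC content of 56.3%. Of 33469 windows of this length, 33.1% held at least 1 match, and their median GC content was 51.7%. Of the 6 member genes with a window, Podxl, Synpo and Ptpro held a match. A match is a run of letters and not a bound site, and nothing in the array data measured binding.

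Ptpro encodes a receptor tyrosine phosphatase, also known as GLEPP1, that sits on the apical face of the foot processes. Its signals were 90.0, 118.2, 113.7 and 98.5 in case, and 117, 92.9, 83.9, 91.6 and 101.8 in control. The ranges nearly coincided, with control animal 10 again lowest and case animal 3 next. Its log2 difference was 0.10 ± 0.14 (SE), with a 95% interval from a fold of 0.874 to one of 1.32 (limma adjusted p = 0.929).

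Synpo encodes synaptopodin, which binds actin and alpha-actinin in the foot processes. The brighter probe set, 1388786_at, had signals of 221.7, 286.2, 249.1 and 237.3 in case and of 287.9, 208.4, 237.8, 208.6 and 266.6 in control. All 4 case values lay inside the range of the controls. Its log2 difference of 0.04 ± 0.13 (SE) had a 95% interval from a fold of 0.844 to one of 1.26, the narrowest of the 11 (limma adjusted p = 0.981). The dimmer probe set, 1387501_at, had signals of 72.9, 67.2, 37.6 and 47.3 in case, and of 57.5, 49.7, 63.4, 51.8 and 63.3 in control. Case animals 7 and 8 were the 2 lowest here and case animals 3 and 5 the 2 highest. The group difference was -0.06 ± 0.19 (SE; limma adjusted p = 0.983). Without case animals 7 and 8 it turned to 0.28, and with the log2 actin ratio as a covariate to 0.15. Over all 9 arrays its r with the log2 actin ratio was -0.79 (exact permutation p = 0.0110, adjusted 0.0646) and its rho -0.87 (exact permutation p = 0.00451, adjusted 0.0496). Without case animals 7 and 8 r was -0.46 (exact permutation p = 0.309).

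Actn4 encodes alpha-actinin-4, which crosslinks actin filaments in podocytes and is made by many other cells as well. Its signals were 398.5, 451.5, 355.1 and 580.4 in case, and 619.6, 383.8, 471.7, 334 and 390 in control. The highest and the lowest values were both from controls. Its log2 difference was 0.03 ± 0.19 (SE), with a 95% interval from a fold of 0.773 to one of 1.35 (limma adjusted p = 0.990). Within the first fluidics run it was -0.63 and within the second 0.56, each resting on a group of 1 animal.

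Wt1 encodes the zinc finger transcription factor that podocytes keep expressing in the adult kidney. At 1377223_at the signals were 23.8, 50.1, 52 and 50 in case, and 47.6, 70.4, 36.2, 33.4 and 44.3 in control. Case animal 3 was the lowest and control animal 9 the highest, with the other 3 case animals close together between them. Case and control differed on the log2 scale by -0.08 ± 0.25 (SE), with a 95% interval from a fold of 0.649 to one of 1.38 (limma adjusted p = 0.981). The other Wt1 probe set, 1369695_at, lay below the filter, with signals from 14.8 to 35.9 in case and from 20.2 to 28.7 in control (log2 difference -0.04 ± 0.25 (SE), fit with no filter). Around the filter level, a signal near 33.3, the nearest probe sets were this one, at a geometric mean level of 22.3, and Wt1 1377223_at, at 43.7.

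**Figure D3:**
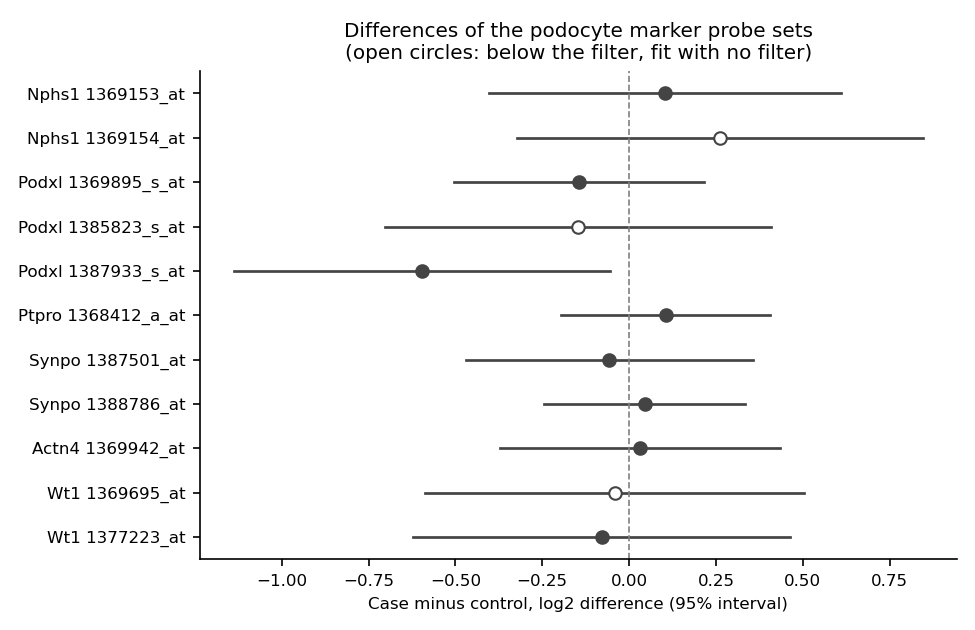
Log2 difference, case minus control, with its 95% interval for the 11 podocyte marker probe sets. Open circles mark the 3 probe sets below the filter, from a fit with no filter, and the interval of Podxl 1387933_s_at (-1.14 to -0.06) is the only one that does not cross 0.

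Leaving Podxl 1387933_s_at aside, the intervals of the 7 other probe sets tested lay between folds of 0.649 and 1.53, and the narrowest, of Synpo 1388786_at, between 0.844 and 1.26. The probe sets of a gene did not follow each other closely over the 9 animals. Pearson's r between probe sets of the same gene was 0.43 for Nphs1, 0.21 for Synpo, 0.40 for Wt1 and 0.18, 0.43 and 0.78 for the 3 Podxl pairs (exact permutation p from 0.00875 to 0.639). Spearman's rho for the same 6 pairs lay between 0.05 and 0.73 (exact permutation p from 0.0311 to 0.912), and none of them passed adjustment over all 21 pairs computed.

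Differences between animals were shared by several of the genes, whatever the group. Control animal 10 and case animal 3 were the 2 lowest animals for Nphs1 1369153_at, for Podxl 1369895_s_at and for Ptpro, and case animal 5 was the highest for all 3. For Wt1 1377223_at case animal 3 was lowest and control animal 10 ranked 3 of 9 from the lowest, while for Actn4 case animal 3 ranked 5 and control animal 10 ranked 7. Synpo 1388786_at had these animals at ranks 3 and 5 and control animals 9 and 11 lowest. Nphs1 and Ptpro had r = 0.77 (exact permutation p = 0.00831, adjusted 0.0919 over 21 pairs) and rho = 0.87 (exact permutation p = 0.00451, adjusted 0.0947). Nphs1 and Podxl had r = 0.73 (exact permutation p = 0.0195, adjusted 0.102) and rho = 0.78 (exact permutation p = 0.0172, adjusted 0.131). Ptpro and Synpo 1388786_at had r = 0.79 (exact permutation p = 0.0135, adjusted 0.0943) and rho = 0.73 (exact permutation p = 0.0311, adjusted 0.131).

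These relations rested in part on a few animals. Without case animal 3 and control animal 10, r was 0.59 for Nphs1 with Ptpro (exact permutation p = 0.161) and 0.46 for Nphs1 with Podxl (exact permutation p = 0.288). Without case animal 5 and control animal 4 it was 0.53 for Ptpro with Synpo (exact permutation p = 0.213). With the group means removed the 3 values were 0.78, 0.82 and 0.80. Of the 15 pairs of brightest probe sets from different genes, 14 had an r above 0, the exception being Nphs1 with Actn4 at -0.18 (exact permutation p = 0.653; rho = -0.22, exact permutation p = 0.581). None of the 21 pairs passed adjustment, and the fluidics runs held too few arrays for values within them.

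**Figure D4:**
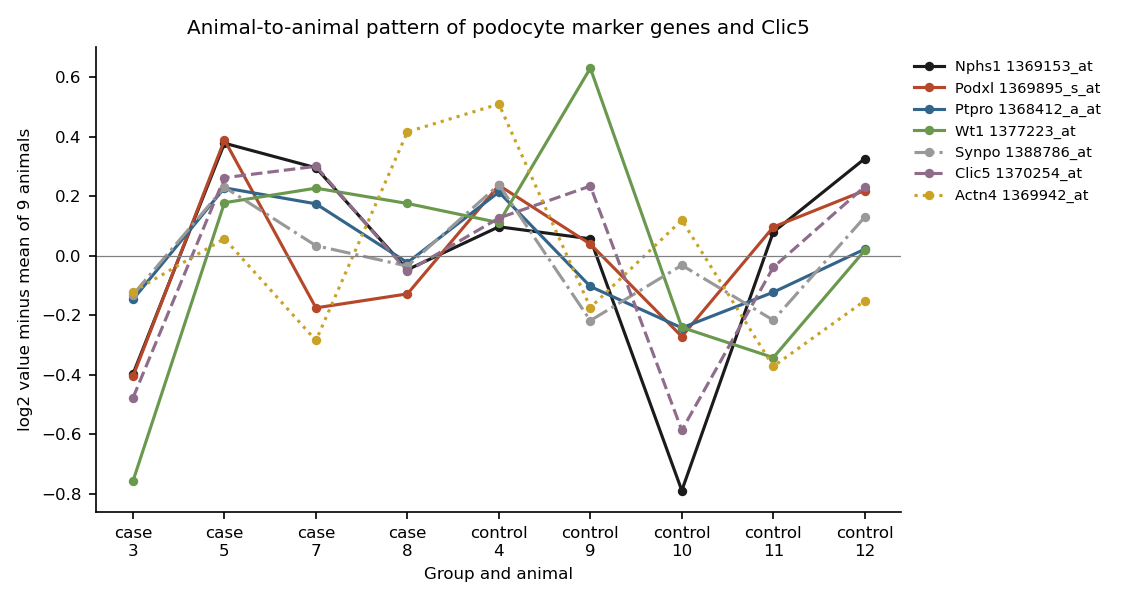
Log2 value of the brightest probe set of Nphs1, Podxl, Ptpro, Wt1, Synpo and Actn4, and of Clic5, minus its mean over the 9 animals, in each animal in order of group and number. Nphs1, Podxl, Ptpro and Clic5 dip together in case animal 3 and control animal 10, while Actn4 (dotted) and Synpo (dash-dotted) are lowest in other animals.

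Over 7147 genes with a probe set that passed the filter, the patterns most like that of Nphs1 1369153_at over the 9 arrays were those of Rin2 (r = 0.98), Clic5 (0.95), Dnajc2 (0.93), Lpl (0.93) and Vps13b (0.92). They were picked as the highest of many, so these values are a description. Clic5 encodes a chloride intracellular channel family protein associated with ezrin, and it was in the list of foot process genes used below. Clic5 signals were 41.7, 73, 75.1 and 57.7 in case animals 3, 5, 7 and 8, and 66, 71.5, 38.3, 58.3 and 71.4 in control animals 4, 9, 10, 11 and 12. Rin2 1372365_at likewise had its 2 lowest signals in control animal 10 (204.8) and case animal 3 (241.2). Rin2's other probe set, 1375602_at, did not share this order, with signals of 69 and 68.5 in these 2 animals and a lowest value of 57.8 in control animal 9. For Podxl 1369895_s_at the 5 most similar patterns were those of Cav2 (r = 0.94), Lmna (0.93), Acp5 (0.91), Olfml3 (0.91) and Nox4 (0.91). Cav2, which encodes caveolin-2, had its lowest signal in case animal 3 (46.2) and its highest in case animal 5 (146.5), as this Podxl probe set did.

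Other genes listed for the filtration barrier showed no detectable shift either in kidney RNA, to which other cells contribute as well. In 5 lists of slit diaphragm, foot process, transcription factor, adhesion and basement membrane, and other podocyte-enriched genes, 58 of 79 genes had a probe set and 45 were tested at their brightest. None passed adjustment. At an unadjusted p under 0.05 there were 1 higher and 1 lower, or 4.44% of the 45 beside 6.69% of all probe sets tested. Of the 45 differences 23 lay above 0 and 22 below, and their median was 0.00 on the log2 scale, beside -0.01 over all 7147 genes.

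Of the slit diaphragm and its signalling, 7 of 20 genes were tested, 3 above 0 and 4 below, with a median of -0.03. Cldn5, a tight junction gene of endothelium also found in podocytes, had a log2 difference of -0.24 ± 0.15 (SE), and Prkci, a polarity kinase of the slit diaphragm complex, one of -0.13 ± 0.13. Among foot process actin and apical scaffold genes, 12 of 19 were tested, 5 above 0 and 7 below, with a median of -0.04. Actn1, the close relative of Actn4, differed by -0.29 ± 0.17, Ezr, which encodes the podocalyxin-linked protein ezrin, by -0.17 ± 0.12, Rac1, a small GTPase of actin remodelling, by -0.14 ± 0.11, and its relative Cdc42 by 0.13 ± 0.12 (-0.20 ± 0.15 at its other probe set). At the probe sets given so far, none of these 6 genes had an unadjusted p under 0.05. The other Actn1 probe set differed by -0.13 ± 0.22, and another Prkci probe set that passed the filter by -0.20 ± 0.20. A dim Prkci probe set below the filter differed by -0.71 ± 0.29 in a fit with no filter. Its unadjusted limma p was 0.0315 and its adjusted p 0.746.

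Of 10 podocyte transcription factors 4 were tested, with a median of -0.13. Tcf21 differed by -0.21 ± 0.20, but by 0.14 without case animals 7 and 8. Zhx2 differed by -0.13 ± 0.17. Among 14 other podocyte-enriched genes 9 were tested, with a median of 0.02, and the smallest p was that of Efnb1, which encodes ephrin-B1 (-0.59 ± 0.36). Leaving out 1 animal at a time moved this Efnb1 value between -0.96 (without case animal 5) and -0.15 (without case animal 3). The other Efnb1 probe set differed by -0.39 ± 0.23. At the first, the case mean of 33.45 lay close to the filter level near 33.3 and the control mean of 44.4 above it. At the other, case signals were 20.1, 43.3, 35.1 and 21.1, and control signals lay between 31.7 and 51.1. Both passed the filter more through the control animals, so values below 0 were favoured.

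Of 16 adhesion and glomerular basement membrane genes 13 were tested, 9 above 0 and 4 below, with a median of 0.06. Itgb1 encodes integrin beta-1, the subunit that anchors podocytes, and many other cells, to the basement membrane. At 1368819_at its signals were 612.6, 503.6, 578.9 and 590.6 in case animals 3, 5, 7 and 8, and 448.5, 369, 458.4, 352.6 and 426.3 in control animals 4, 9, 10, 11 and 12. Every case animal was above every control. Over all probe sets tested the groups did not overlap, in either direction, for 1.88%, and Itgb1 had the smallest p of its list. The log2 difference was 0.47 ± 0.12 (SE), with an unadjusted limma p of 0.00162 and an adjusted p of 0.530. Itgb1's other probe set, 1387346_at, differed by only 0.08 ± 0.14, and its groups overlapped. Col4a4, a chain of the collagen network that is particular to mature glomerular basement membrane and a few others, had signals of 28.9, 39.1, 29.9 and 27.2 in case. In control they were 50.7, 37.7, 43.9, 49.2 and 37.7, and only case animal 5 reached into the range of the controls. Its log2 difference was -0.43 ± 0.17 (SE), with an unadjusted limma p of 0.0281 and an adjusted p of 0.670. The case mean of Col4a4, 31.3, lay below the filter level near 33.3 and its control mean, 43.8, above. It thus passed the filter through the control animals, so a value below 0 was favoured. Lamb2, the laminin chain of this membrane, differed by 0.23 ± 0.14, and by 0.35 without case animal 3.

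Markers of the neighbouring cells were set beside the podocyte genes. Of 6 mesangial and smooth muscle genes with a probe set 5 were tested, all below 0, with a median of -0.38, that of Rgs5. Of these, 2 had an unadjusted limma p under 0.05 (6.69% of all probe sets tested), and none passed adjustment. Rgs5 and Des had case means of 29.6 and 31.65, below the filter level near 33.3, and control means of 40.2 and 42.2. They passed the filter through the control animals, so values below 0 were favoured. The summed signal of the 6 genes was 260.7 to 329.3 in case and 329.9 to 392 in control. The groups did not overlap, but only just, at 329.3 against 329.9, and case animals 7 and 8 had the 2 lowest sums, 261.7 and 260.7. The sum includes Rgs5 and Des. The share without overlap was 1.88% for single probe sets tested and was not computed for sums. Myh11, which encodes a myosin of smooth muscle, differed by -0.43 ± 0.14 and Rgs5, a pericyte marker, by -0.38 ± 0.18. The unadjusted limma p of Rgs5 was 0.0499, and it was above 0.05 with no filter, quantile normalization, median centring or the run as a block (adjusted p = 0.747). The summed signal of 7 endothelial markers with a probe set was 787.7 to 1092 in case and 870.3 to 1041.6 in control. Of the 6 tested, 3 lay below 0 and 3 above. At their brightest probe sets 2 of them, Esam and Egfl7, had an unadjusted limma p under 0.05. Both were lower in case, beside 6.69% of all probe sets tested in either direction, and none of the 6 passed adjustment. Esam, an endothelial adhesion gene, was at -0.48 ± 0.19 and Egfl7, a secreted factor of vessels, at -0.45 ± 0.18 (-0.17 ± 0.17 at its other probe set). The endothelial receptor genes Kdr (0.19 ± 0.18) and Flt1 (0.02 ± 0.23) and the adhesion gene Pecam1 (0.13 ± 0.17) lay above 0. The 6 proximal tubule markers summed to 6459.9 to 9298.3 in case and 6312 to 9351.7 in control. No gene of these 3 lists had a signal of 0 in any animal, and the part of these cells in the podocyte values was not tested.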

How the data were processed

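Kidney RNA of 4 case and 5 control rats was measured on 9 arrays of 1 chip type, 1 lot and 1 day, per the file headers. The deposited values are signal intensities on a linear scale, already brought to a common level: the mean of each array, trimmed by 2% at both ends, was 100.02 or 100.03. How probes were summarised is not given in the sources used here. Depth has no counterpart on arrays, and the number of arrays limits the precision.

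Of 15923 probe sets, 57 controls were left out. Gene symbols came from the platform annotation, and 12748 of 12783 single symbols matched RefSeq (GRCr8) by Entrez ID. Values were used as log2(signal + 5.03), the pseudocount being 10% of the median signal of 50.3, which understates changes of dim probe sets. Probe sets whose mean log2 value lay above the 40th percentile were tested (9519) with limma 3.58.1 in R 4.3.3, with an intensity trend, 2-sided, Benjamini-Hochberg adjustment and a threshold of 0.05. The 3 dim members were fitted with no filter. Correlations used exact permutation over all pairings, with Python 3.11.15 and NumPy 2.4.6. In 2 families, 21 pairs of member probe sets and 11 relations to the log2 actin ratio were computed, with 0 passing adjustment by Pearson's r. By Spearman's rho 1 did, Synpo 1387501_at with the actin ratio. Fluidics runs were inferred, with a gap of 10 minutes or more between the hybridisation times in the file headers separating them.

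The members, gene lists and alternatives were chosen with earlier results of these data known. The genes named from each podocyte list were among the 4 of smallest p, and those named by pattern were the 5 most similar to Nphs1 and to Podxl. Myh11 and Rgs5 in the mesangial list, and Esam and Egfl7 in the endothelial list, had the smallest p. Des, Kdr, Flt1 and Pecam1 were named from the same lists. Lists took each gene's brightest single-symbol probe set. Promoter windows came from RefSeq, and other short motifs looked for are not reported. The alternatives were the pseudocount, filter, normalization, trend, array weights, run, actin ratio, linear signals and leaving out animals. The fit was also run on simulated data, with means and spreads taken from these arrays. There it recovered 19.25% of log2 changes of 0.5, 75.07% of those of 1 and 97.73% of those of 2 at an adjusted p under 0.05. Figures were drawn with matplotlib 3.10.9.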

Additional observations from a re-analysis of the deposited data

Results flagged for a closer look

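Nphs1 1369153_at was flagged for control animal 10, whose signal of 30.2 lay far below those of the other 4 controls, with a gap to the nearest of 0.759 of the group's log2 range. Without this animal the log2 difference was -0.08 in place of 0.10. Wt1 1377223_at was flagged for case animal 3, whose signal of 23.8 lay far below those of the other 3 case animals, with a gap of 0.948 of the range. Without it the log2 difference was 0.16 in place of -0.08. In 22 groups checked, chance flags about 1 in 20.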

How the results depend on the processing

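None of the 8 member probe sets tested passed adjustment under any alternative run, and nor did any of the 45 further podocyte and glomerular genes. The count of members at an unadjusted p under 0.05 was 1, for Podxl 1387933_s_at, and 0 with the filter at the 60th percentile (which drops this probe set and those of Nphs1, Wt1 and the dimmer Synpo), with the log2 actin ratio as a covariate, and without case animals 7 and 8. Leaving out 1 animal at a time gave 0 to 1, with 0 without case animal 7 or 8 or control animal 4 or 9. Over the whole array the count past adjustment was 0, and 1 with a pseudocount of 50% of the median, with no filter or with median centring. Leaving out 1 animal gave 0 to 53, the highest without case animal 5 (14 higher and 39 lower). Of the 637 probe sets at an unadjusted p under 0.05, 43.0% were higher in case, but with median centring 74.4%, and the median over all tested moved from -0.02 to 0.07. The 637 became 988 with no filter, 1064 without case animal 5, 423 without case animal 8 and 285 without case animals 7 and 8.

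The sign of the differences near 0 was not stable. With quantile normalization Actn4 was -0.012, Synpo 1387501_at 0.036, Wt1 1369695_at 0.086 and Wt1 1377223_at 0.0071. With median centring the last 3 were 0.032, 0.047 and 0.0092. With the run as a block Actn4 was -0.034 and Synpo 1388786_at -0.037. Within the first run every member probe set lay below 0, from -0.70 for Podxl 1387933_s_at to -0.0051 for Nphs1 1369153_at. Within the second the signs were mixed, from -1.14 for Podxl 1387933_s_at to 0.70 for Nphs1 1369154_at. The first run rests on 1 control, animal 4, and the second on 1 case, animal 8. With the log2 actin ratio Nphs1 1369153_at was -0.077, Podxl 1385823_s_at 0.058, Synpo 1387501_at 0.15 and Wt1 1369695_at 0.020. Without case animals 7 and 8, which was chosen after seeing the data, Actn4 was -0.018, Podxl 1385823_s_at 0.15, Synpo 1387501_at 0.28, Wt1 1369695_at 0.085 and Tcf21 0.14. The ratio of mean linear signals of Wt1 1369695_at was 1.01. Leaving out 1 animal moved Actn4 from -0.10 to 0.16, Nphs1 1369153_at from -0.083 to 0.25, Synpo 1387501_at from -0.19 to 0.10, Synpo 1388786_at from -0.024 to 0.11, Wt1 1369695_at from -0.24 to 0.11 and Wt1 1377223_at from -0.17 to 0.16. For Podxl 1387933_s_at the range was -0.80 to -0.39, for 1369895_s_at -0.30 to -0.035, for 1385823_s_at -0.27 to -0.0063, for Nphs1 1369154_at 0.096 to 0.43 and for Ptpro 0.048 to 0.17. Further genes that moved by over 1.5 times relative to their main value were Actn1 (-0.39 to -0.15), Ezr (-0.28 to -0.089), Prkci (-0.18 to -0.040), Zhx2 (-0.21 to -0.039), Tcf21 (-0.38 to -0.080), Cdc42 (0.070 to 0.18), Lamb2 (0.17 to 0.35) and Efnb1. The cause was not tested. Among correlations, r without the 2 farthest animals turned to -0.0052 for Actn4 with Podxl, -0.070 for Actn4 with Ptpro, -0.032 for Actn4 with Wt1 (rho over all 9 was -0.05) and -0.063 for Nphs1 with Wt1. No paired analysis was possible because the labels give the groups no shared numbers.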
